A study of Mus musculus with 6 samples.

Results

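Immune cells of liver tissue lying beside, but free of, tumour were compared between mice given control breast cancer cells and mice given Tim3-knockdown breast cancer cells. This adjacent tissue (AT) comparison took every cell of the AT expression matrix, 2345 of the 23008 cells of the series, and assigned each cell to its library by the suffix of its barcode, which left 1803 cells in the Ctrl library and 542 in the Tim3-KD (knockdown) library. Every single-gene feature was compared, 4358 of the 4486 features of the matrix, and the other 128 features name several genes at once. All mice were Balb/c, the line injected into the heart was the mouse mammary tumour line 4T07 (written 4TO7 in the labels), and tissue was taken on day 3. The Ctrl cells carried a scramble vector and the Tim3-KD cells carried short hairpin RNA against Tim3 (gene symbol Havcr2), so that the perturbed gene lay in the injected tumour cells and not in the sequenced host cells. The sort kept cells positive for CD45, the surface marker of leukocytes, each library pooled mice, and there was 1 library per group. Every difference below is therefore a description of 2 libraries, without a test, and intervals cover counting error only. The tumour line and the mouse-to-mouse spread cannot be told apart from anything else that differed between the pools.

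TIM3 is a receptor best known on T cells, where it dampens responses, and it is also present on dendritic cells and monocytes. The liver has a resident immune system of its own. Kupffer cells are macrophages fixed inside the sinusoids that clear particles and complement-tagged material from portal blood, sinusoidal endothelial cells line the same channels and share several scavenger receptors with them, and NK cells, ILC1 and T cells patrol the lumen. Neutrophils mature through promyelocytes, which make azurophil granules, and myelocytes, which make specific granules, and both stages normally sit in the bone marrow rather than in the liver.

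The Ctrl library held 30619729 unique molecular identifiers (UMIs, 1 per captured RNA molecule) with a median of 8964 per cell, and the Tim3-KD library held 7086531 with a median of 10248. Levels are given as CPM, the UMIs of a gene scaled to 1000000 UMIs of a library or of a cell class, and the matrix genes took 13.2% of all UMIs in Ctrl and 17.2% in the knockdown. No barcode was shared between both AT libraries. As to the sort, 8 epithelial or tumour markers and 7 erythroid markers were all outside the matrix genes, while the 10 hepatocyte markers present summed to 156 CPM in Ctrl and 981 CPM in the knockdown, and the 12 endothelial markers present summed to 45.7 and 840 CPM.

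The libraries also stood apart in genes that have a near-identical copy elsewhere in the genome, which touches some of the ratios below. Of the 128 features that name several genes, 97 (75.8%) were 2-fold or more higher and 7 (5.47%) 2-fold or more lower in Tim3-KD. Together they took 0.322% of the Ctrl UMIs and 3.04% of the Tim3-KD UMIs. In Ctrl, 37 of them had no UMI, against 93846 UMIs in Tim3-KD, while 2 had no UMI in Tim3-KD, against 2550 in Ctrl. The feature that joins the ribosomal pseudogenes Rps18.ps3 and Rps18.ps5, for instance, had 0 UMIs in Ctrl and 22544 in the knockdown. The feature for the neutrophil chemokines Cxcl2 and Cxcl3 had 1783 UMIs in Ctrl and 0 in the knockdown. No single-gene feature with at least 50 UMIs was at 0 in Ctrl, and 15 were at 0 in Tim3-KD.

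Among single-gene features, 18 of the 2123 genes with at least 10 UMIs in each of 6 cell classes (0.848%) were 2-fold or more higher in Tim3-KD in all 6 classes, and 3 (0.141%) were lower in all 6. These genes were singled out after their values were seen. Of the 17 higher genes that could be matched to a transcript, 10 (58.8%) had a near-identical copy in another gene, against 76 of 2103 tested genes (3.61%), where a near-identical copy means 95% identity over at least 50% of the longest transcript. The processed pseudogene Gm8210 had 4 UMIs in Ctrl and 4201 in the knockdown, and 0.222% of the Ctrl cells carried it, compared with 90.0% of the Tim3-KD cells. Rpl30.ps8 had 8 and 2210 UMIs. The long RNA Erdr1 had 2 UMIs in Ctrl and 342 in the knockdown. Rnaset2a, a ribonuclease gene whose transcript is 99.1% identical to that of Rnaset2b, had 591 and 1766 UMIs. Genes without a near copy were also among the 18, such as Mrps24, a mitochondrial ribosomal protein gene, with 286 and 629 UMIs, and Tmem259 with 38 and 189. The 3 genes lower in all 6 classes were Rnu2.10, a U2 small nuclear RNA copy, and the neutrophil genes Il1r2 and Wfdc21. These 6 classes leave out mature neutrophil-like cells. There Il1r2 was higher in Tim3-KD, at 1547 CPM in Ctrl and 2637 in the knockdown, and Wfdc21 was lower, at 5587 and 618 CPM. In Ctrl B-like cells Il1r2 and Wfdc21 stood at 1.53% and 1.31% of those Ctrl levels, and in Ctrl T-like cells at 1.37% and 0.426%. Whether these ratios came from how reads were assigned, from free RNA of other cells or from the cells themselves was not tested.

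The last 300 bases of the Gm8210 transcript, the gene of the largest ratio among the 18, are shown with those of Rpl29, a protein-coding gene of the same family of copies. Of the 29 other genes that matched over more than 50% of its length, the pseudogene Gm13841 was identical over all 483 bases (100%), so reads of the latter and of Gm8210 cannot be told apart by sequence. Gm8210 lies at chr1:43189156-43189638 on the plus strand (GRCm38), the shown part is chr1:43189339-43189638, and its 483 bases are 99.4% identical to Rpl29, with substitutions C72A, C300T and T423C counted from the first base of Gm8210 and written with the Rpl29 base first. Capitals mark the differing bases.
Gm8210: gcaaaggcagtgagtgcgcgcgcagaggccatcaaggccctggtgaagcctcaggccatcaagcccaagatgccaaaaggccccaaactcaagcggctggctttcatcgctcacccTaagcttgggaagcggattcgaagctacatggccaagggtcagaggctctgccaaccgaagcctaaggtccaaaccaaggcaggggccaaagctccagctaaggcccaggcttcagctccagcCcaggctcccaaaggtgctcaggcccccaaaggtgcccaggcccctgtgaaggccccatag
Rpl29: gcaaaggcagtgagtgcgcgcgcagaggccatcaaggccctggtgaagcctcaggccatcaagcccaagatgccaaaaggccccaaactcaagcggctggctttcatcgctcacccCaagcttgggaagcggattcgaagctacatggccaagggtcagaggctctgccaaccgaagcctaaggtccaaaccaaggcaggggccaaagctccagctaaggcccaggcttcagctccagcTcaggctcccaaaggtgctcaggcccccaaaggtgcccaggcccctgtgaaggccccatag

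**Figure D1:**
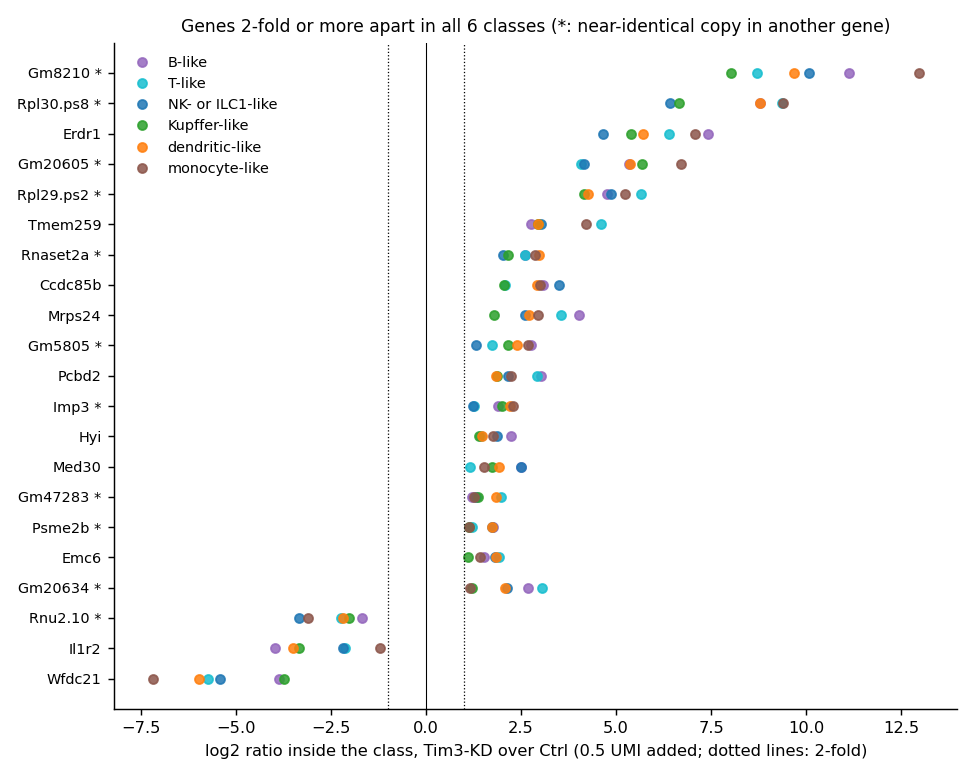
Genes 2-fold or more apart in all 6 cell classes, with 1 point per class at its log2 ratio of Tim3-KD over Ctrl (0.5 UMI added to each sum; dotted lines at 2-fold; an asterisk marks a near-identical copy in another gene). All 18 genes on the right were higher in Tim3-KD in each of these classes, led by Gm8210 and Rpl30.ps8, and the 3 at the bottom were lower in each. Mature neutrophil-like cells are not among the 6 classes.

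Clustering of the AT cells gave 9 classes named from marker genes and 1 unnamed cluster, and the mix of classes differed widely between the libraries. B-like cells made up 14.4% of Ctrl and 36.5% of Tim3-KD cells, Kupffer-like cells 1.72% and 19.4%, T-like cells 4.60% and 14.6%, dendritic-like cells 1.94% and 4.80%, and NK- or ILC1-like cells 6.77% and 10.3%. Mature neutrophil-like cells made up 36.4% of Ctrl (656 cells) and 3.51% of Tim3-KD (19 cells), and monocyte-like cells 14.3% and 4.24%. Neutrophil precursor-like cells were 249 of the Ctrl cells (13.8%) and 0 of the 542 Tim3-KD cells, which allows a share of up to 0.678% (upper bound of the exact 95% binomial interval). The unnamed cluster, led by Ctsg, Mpo and Mcpt8, held 107 Ctrl cells and 0 Tim3-KD cells. At a clustering resolution of 2 no cluster was unnamed. There a cluster of 93 Ctrl cells led by Ctsg and Mpo was named precursor-like, and 14 Ctrl cells led by Mcpt8 were named basophil- or mast-like. Endothelial-like cells, which a CD45 sort should leave out, were 2 cells in Ctrl and 36 (6.64%) in Tim3-KD. At the resolution of 1 used here, intervals of the shares did not overlap for these classes other than NK- or ILC1-like cells, for which Ctrl ended at 8.03% and Tim3-KD began at 7.90%. In a sort a share counts cells recovered, and numbers per liver were not measured.

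**Figure D2:**
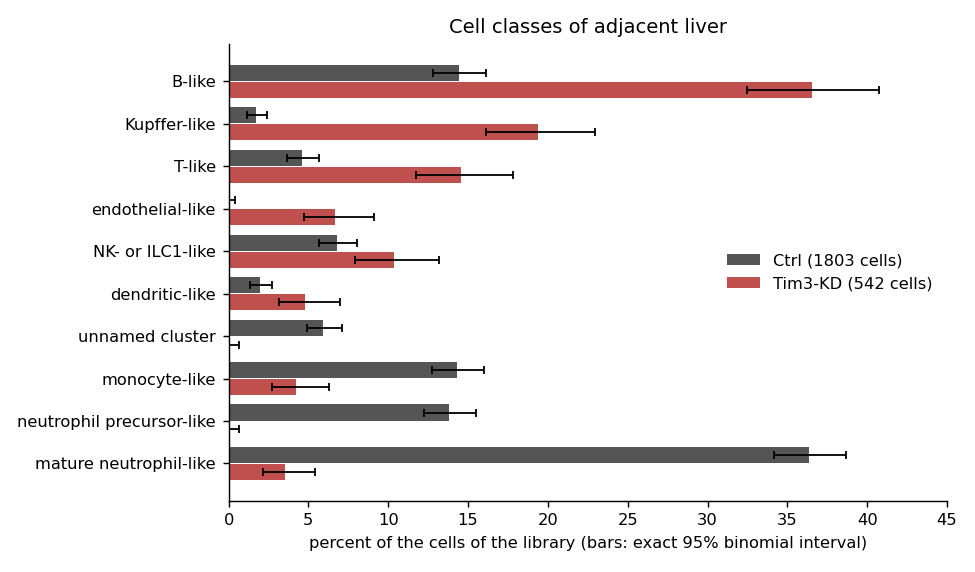
Cell classes of adjacent liver as percent of the cells of each library (Ctrl 1803 cells, Tim3-KD 542 cells), with bars showing the exact 95% binomial interval, which covers counting error only. Lymphocyte, Kupffer-like and endothelial-like shares were higher in Tim3-KD, while both neutrophil classes, monocyte-like cells and the unnamed cluster were lower.

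Across the whole libraries, 1429 of 4355 genes with at least 50 UMIs (32.8%) were 2-fold or more higher in Tim3-KD and 410 (9.41%) were 2-fold or more lower, with 0.5 UMI added to each sum before the ratio. At 4-fold the counts were 518 and 217. The median log2 ratio of all genes was 0.57, and a trimmed mean over genes gave a shift of 0.59. Once that shift was taken out, the genes past 2-fold split 53.1% higher, against 77.7% before. Of the 1671 genes with their highest class level in endothelial-like cells, 578 were among the higher genes, 34.6% against 32.8% of all genes, and of the 764 highest in Kupffer-like cells 392 were (51.3%). Of the 410 lower genes, 205 were highest in mature neutrophil-like cells, 75 in the unnamed cluster, 60 in neutrophil precursor-like cells and 48 in monocyte-like cells. These were 47.5%, 25.5%, 78.9% and 33.8% of the genes highest in each, against 9.41% of all genes.

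**Figure D3:**
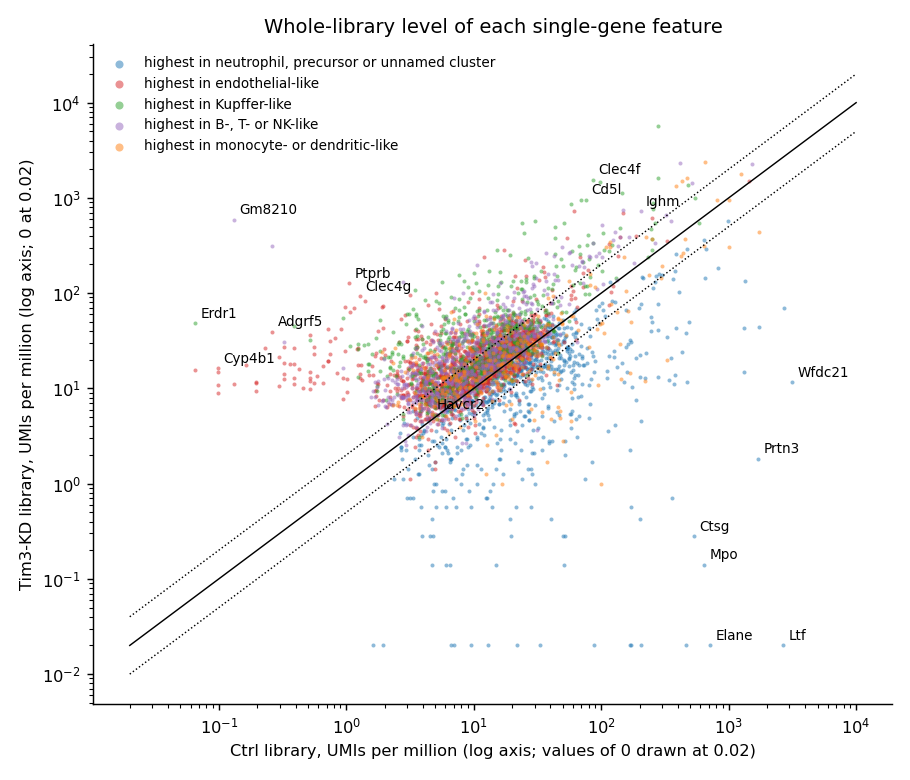
Whole-library level of each single-gene feature in Ctrl (x axis) and Tim3-KD (y axis), in CPM on log axes with 0 drawn at 0.02, coloured by the class with the highest level. The solid line marks equal levels and dotted lines mark 2-fold. Of the 432 genes highest in mature neutrophil-like cells, 205 lay 2-fold or more below the solid line, and Ltf and Elane lay at 0 in Tim3-KD. Of the 764 genes highest in Kupffer-like cells, 392 lay 2-fold or more above it.

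The lowest ratios belonged to granule proteins of neutrophils and their precursors. Ltf (lactoferrin, a specific granule protein; chr9:111019271-111042767) had 82145 UMIs in Ctrl, 2683 CPM, and 0 in Tim3-KD, which at a floor of 3 UMIs per library is at least 6337-fold lower. Elane (neutrophil elastase, an azurophil granule protease; chr10:79886247-79888215) had 21923 UMIs in Ctrl and 0 in the knockdown, at least 1691-fold lower. Mpo, the peroxidase that makes hypochlorous acid in azurophil granules, had 19732 and 1 UMIs, and cathepsin G (Ctsg) had 16237 and 2. Prtn3 (proteinase 3) had 52153 and 13 UMIs, a ratio of 0.00108 (95% interval 0.000573 to 0.00184).

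Ly6g, the surface protein by which mouse neutrophils are sorted, had 14251 UMIs in Ctrl and 0 in the knockdown, although 19 mature neutrophil-like cells were present there. The other genes at the bottom of the ranking were Ms4a3 (6243 and 0 UMIs), a gene of granulocyte-monocyte precursors, the stefins Stfa3 (5216 and 0) and Stfa2 (11046 and 5), which inhibit cysteine proteases, Fcnb (ficolin B, 5184 and 0), Prok2 (the chemokine-like prokineticin 2, 2709 and 0) and Prss57 (a neutrophil serine protease, 1007 and 0).

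By list, 7 of 9 azurophil granule genes were lower and none higher, with a median log2 ratio of -9.80. All 12 genes of specific and gelatinase granules were lower (median -4.92), for example Mmp9, a gelatinase, with 219 CPM in Ctrl and 12.8 in the knockdown, and Anxa1 (annexin A1) with 2739 and 70.1 CPM. All 14 genes of mature neutrophils were lower (median -3.83), among them the chemokine receptor Cxcr2 (144 and 18.5 CPM) and the growth factor receptor Csf3r (244 and 55.6 CPM). Inside mature neutrophil-like cells (656 and 19 cells) Csf3r stood higher in Tim3-KD, at 1066 and 2627 CPM, while the stefin Stfa2l1 stood lower, at 2008 and 792 CPM. The list medians stood against a median of 0.57 over all genes, and with the trimmed mean taken out the lists stood at -10.39, -5.51 and -4.41.

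Apart from Erdr1 and the pseudogenes and unnamed models, the highest ratios belonged to genes whose level was highest in endothelial-like cells, many of them genes of sinusoidal endothelium. Ptprb, an endothelial tyrosine phosphatase (chr10:116275523-116389535), had 32 UMIs in Ctrl and 899 in the knockdown, 1.05 and 127 CPM, a ratio of 121 (95% interval 85.4 to 179). Clec4g, a lectin receptor of sinusoidal endothelium, had 39 and 661 UMIs, a ratio of 73.2 (53.0 to 104). Adgrf5, an adhesion receptor of endothelium, had 8 and 280 UMIs. The water channel Aqp1 had 30 and 502 UMIs, Oit3 had 7 and 187, the lectin Clec14a had 3 and 105, the cytochrome Cyp4b1 had 3 and 115, the transcription factor Meis2 had 2 and 110, and the basement membrane proteoglycan Hspg2 had 9 and 151. Gas6, the ligand of the Axl and Mertk receptors, had 10 and 194 UMIs, and Pakap had 5 and 124. With Erdr1, these were the 12 highest ratios among genes with at least 100 UMIs, leaving aside ribosomal genes and pseudogenes and models without a gene name, such as Gm8210 and Rpl30.ps8 above, and all but Erdr1 had their highest class level in endothelial-like cells.

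Of 19 sinusoidal endothelial genes, 17 were higher and none lower, with a median log2 ratio of 5.23. The scavenger receptor Stab2 had 1.89 CPM in Ctrl and 71.4 in the knockdown, the angiocrine factor Bmp2 had 0.914 and 42.1 CPM, and Wnt2, which sets hepatocyte zonation, had 3 and 76 UMIs. The values moved with the 2 and 36 endothelial-like cells and with the hepatocyte markers given above, and their part in each ratio was not tested.

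Genes of Kupffer cells formed the next group. Of 18 scavenger and phagocytosis genes, 16 were higher and 1 was lower, with a median log2 ratio of 4.00. Clec4f, a lectin found on Kupffer cells (chr6:83644542-83656187), had 85.8 CPM in Ctrl and 1553 in the knockdown, a ratio of 18.1 (95% interval 17.3 to 18.9). Vsig4, a complement receptor that takes up opsonised particles, had 30.0 and 577 CPM, and the scavenger protein Cd5l had 76.1 and 957 CPM. Cd14, the endotoxin coreceptor that monocytes and neutrophils also carry, was the exception at 657 CPM in Ctrl and 143 in the knockdown.

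Complement genes followed, with 11 of 13 higher, 1 lower and a median of 3.31. The 3 chains of C1q, the recognition subunit of the classical pathway, stood at 98.7, 70.0 and 57.5 CPM in Ctrl for C1qa, C1qb and C1qc and at 1483, 949 and 872 CPM in Tim3-KD. C5ar1, the receptor for the C5a fragment, was lower, at 161 and 29.5 CPM. Of 11 genes of Kupffer identity factors and iron handling, 10 were higher and none lower (median 2.60), and 7 were still 2-fold or more higher with the shift of 0.59 taken out. Among them were the exporter Slc40a1 (ferroportin) at 51.3 and 546 CPM and the haem oxygenase Hmox1 at 48.7 and 226 CPM.

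Lymphocyte genes were higher as well. Of 18 B cell receptor and coreceptor genes, 17 were higher and none lower (median 2.42), with the light chain constant gene Igkc at 415 CPM in Ctrl and 2306 in the knockdown and the signalling chain Cd79a at 149 and 745 CPM. Of 12 genes of naive and recirculating T cells, 11 were higher and none lower (median 2.38), with the lymph node homing receptor Ccr7 at 42.7 and 245 CPM and the transcription factor Lef1 at 10.1 and 57.3 CPM. Of 12 genes of MHC class II presentation, all were higher across the libraries (median 1.84). Interferon-stimulated genes were split, with 10 of 29 higher, 4 lower and a median of 0.59, close to that of all genes, and with the shift taken out 4 were higher and 6 lower. With the shift of 0.59 taken out, the medians were 4.64 for sinusoidal endothelial, 3.41 for Kupffer scavenger, 2.73 for complement, 1.83 for B cell receptor, 1.80 for naive T cell and 1.25 for MHC class II genes, and 10 of the 12 MHC class II genes were still 2-fold or more higher.

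With the mix of classes held fixed, far fewer genes were past 2-fold. For this, the level of each gene in each of 7 classes with at least 10 cells in both libraries was averaged with the same class weights on both sides. Endothelial-like cells, precursors and the unnamed cluster drop out of that average, because 1 side had too few cells. At the fixed mix 361 genes (8.29%) were 2-fold or more higher and 245 (5.63%) lower, with a median log2 ratio of 0.03. Of the 1429 genes higher across the whole libraries, 207 (14.5%) were also higher at the fixed mix and 10 were lower. Of the 410 lower genes, 143 (34.9%) were also lower and 42 were higher.

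The lists moved accordingly. The Kupffer scavenger list went from a median of 4.00 to 0.16, complement from 3.31 to 0.02, B cell receptor genes from 2.42 to -0.02 and MHC class II from 1.84 to -0.06. Mature neutrophil genes went from -3.83 to -0.29, with 2 of 14 higher and 6 lower, and G0s2, an inhibitor of lipolysis that is abundant in mature neutrophils, turned from a whole-library log2 ratio of -1.96 to 2.18. Azurophil granule genes stayed low, at a median of -5.89 with 7 of 9 lower, in an average that holds no precursor cells. Monocyte-like cells, which weigh 10.7% in it, had all 8 of these genes with 50 UMIs lower. Their dividing cluster held 64 Ctrl and 0 Tim3-KD cells. Elane also had 17.7 CPM in Ctrl B-like cells and 0 in Tim3-KD ones, and the part of each class in the list median was not tested. Specific granule genes stood at -1.48 with 8 of 12 lower. Mature neutrophil-like cells, which weigh in this average, did not sit in the same clusters on both sides, since 1 cluster held 297 Ctrl and 17 Tim3-KD cells, another 238 and 2, and the last 121 and 0. The 5 lowest genes at the fixed mix were Ltf (359 CPM in Ctrl and 0 in the knockdown), Ly6g (198 and 0), Stfa3 (140 and 0), Prok2 (95.03 and 0) and Elane (52.3 and 0). The 5 highest were Erdr1 (0.132 and 41.2 CPM), Cyp4b1 (0 and 3.38), Clec14a (0.0843 and 3.22), Col4a2, a basement membrane collagen chain (0.161 and 3.096), and Pakap (0.540 and 7.97), of which all but Erdr1 had levels under 10 CPM.

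**Figure D4:**
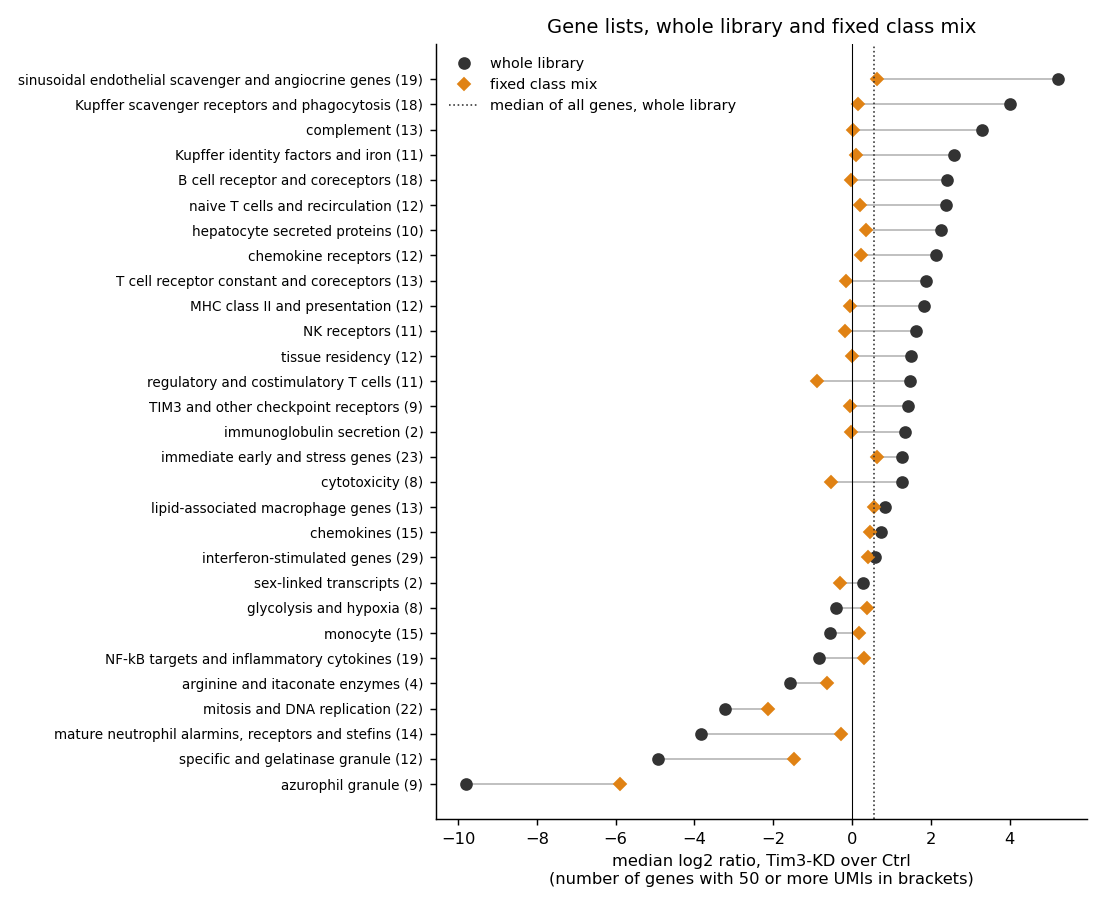
Median log2 ratio of Tim3-KD over Ctrl for each gene list, over whole libraries (black circles) and at a fixed class mix (orange diamonds), with the number of genes in brackets and the median of all genes as a dotted line. Most lists sat near 0 at the fixed mix, whereas azurophil granule genes (-5.89) and mitosis genes (-2.13) stayed below it.

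Genes of the cell cycle stayed low as well. Of 22 mitosis and DNA replication genes, 21 were lower across the libraries and none higher (median -3.21), and 19 were lower at the fixed mix (median -2.13). Mki67, a marker of cycling cells, had 143 CPM in Ctrl and 12.4 in the knockdown, the topoisomerase Top2a had 168 and 14.4 CPM, and the ribonucleotide reductase subunit Rrm2 had 129 and 4.09 CPM. Kif20b, a mitotic kinesin, was the one that missed 2-fold, at 16.5 and 9.31 CPM. The Ctrl UMIs came in part from precursor-like cells and from a dividing monocyte-like cluster of 64 Ctrl cells that held no Tim3-KD cell.

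UMIs of neutrophil and Kupffer cell genes inside B-like cells differed between the libraries along with the class mix, which bears on genes compared inside a class. Whether they came from free RNA or from doublets was not tested. Wfdc21, a neutrophil gene, had a UMI in 31.5% of Ctrl B-like cells and in 2.53% of Tim3-KD B-like cells, at 73.3 and 4.81 CPM. The Ctrl level is 1.31% of its level in Ctrl mature neutrophil-like cells. Ltf had a UMI in 19.6% of Ctrl B-like cells and in none of the Tim3-KD ones. In the other direction, 0.385% of Ctrl B-like cells carried a UMI of Clec4f, compared with 17.2% in the knockdown, at 0.591 and 19.3 CPM. B-like cells had a median of 5151 UMIs in Ctrl and 9598 in the knockdown, so the Wfdc21 and Ltf shares were higher in the library of shallower B-like cells, and the CPM values, which are scaled for depth, differed in the same directions as the shares. Genes named inside a class were accordingly kept to those at 10% or more of their highest class level.

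Kupffer-like cells (31 in Ctrl, 105 in Tim3-KD) had 134 of 1777 genes (7.54%) 2-fold or more higher and 70 (3.94%) lower in Tim3-KD. MHC class II genes stood lower, and so did part of the immediate early and stress genes, with 5 of 18 lower, none higher and a median log2 ratio of -0.59. Of 9 MHC class II genes with at least 50 UMIs, 6 were lower and 1 was higher, with a median log2 ratio of -1.58 against 0.10 over all genes of the class. The antigen-presenting chain H2.Eb1 had 3943 CPM in Ctrl and 998 in the knockdown, a ratio of 0.253 (95% interval 0.235 to 0.272), and was detected in 100% and 90.5% of the cells. H2.Aa had 5001 and 1390 CPM, H2.Ab1 had 3728 and 1250 CPM, the peptide loading chain H2.DMb1 had 534 and 171 CPM, and the class II master regulator Ciita had 63.8 and 21.5 CPM. Cd83, which holds class II molecules at the surface, was the higher member, at 133 and 302 CPM.

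The difference in H2.Aa was present in both Kupffer-like clusters. In the cluster led by Clec4f (22 Ctrl and 48 Tim3-KD cells) H2.Aa stood at 5093 and 1493 CPM, and in the cluster led by Fcna (9 and 57 cells) at 4236 and 1137 CPM. Ciita had 24 and 28 UMIs in the former, 71.4 and 25.7 CPM, but 0 and 5 UMIs in the latter, too few to give a direction. Clec4f itself was close to equal in both, at 6917 and 7326 CPM in the former and 6504 and 6383 CPM in the latter, and Timd4, the phosphatidylserine receptor of resident Kupffer cells, stood at 804 and 745 CPM and at 698 and 697 CPM. The chemokine receptor Cx3cr1 did not share a direction, with 71.4 and 530 CPM in the former and 174 and 159 CPM in the latter.

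Other genes lower in Kupffer-like cells were Ccl2, the chemokine that recruits monocytes (327 and 74.2 CPM), Gadd45b, a stress response gene (223 and 48.1 CPM), Slc20a1, a phosphate transporter (122 and 26.7 CPM), the interferon-induced GTPase Tgtp2 (101 and 15.6 CPM) and the serpin Serpina3g (168 and 18.9 CPM). The values of Tgtp2 leave out a joint feature for Tgtp1 and Tgtp2. That feature was empty across all Ctrl cells, whereas 182 UMIs fell on it across all Tim3-KD cells. Its share in Kupffer-like cells was not tested, so the direction for Tgtp2 is uncertain. The genes higher in Kupffer-like cells rested on few Ctrl UMIs. Slamf1, a self-ligand receptor of leukocytes, had 1 UMI in Ctrl and 60 in the knockdown (ratio 14.7, 95% interval 2.54 to 589), and Acacb, an acetyl-CoA carboxylase, had 3 and 82 (6.69, 2.21 to 33.1). Erdr1 had 0 and 86 UMIs, Eif3j1 had 1 and 49, Tmem259 had 2 and 79, and Ppp1r35 had 2 and 61. C1q chains differed little, with C1qa at 7703 and 6726 CPM, although the complement factors C4b (465 and 228 CPM) and Cfb (202 and 57.2 CPM) were lower. Of 24 interferon-stimulated genes, 1 was lower and none higher. The class had 31 Ctrl cells, so single cells weigh heavily on the Ctrl side.

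Monocyte-like cells (258 in Ctrl, 23 in Tim3-KD) had 384 of 3005 genes (12.8%) higher and 578 (19.2%) lower. All 22 mitosis genes were lower, and the named lower genes Pclaf, Birc5 and Rrm2, which serve DNA replication and cell division, had 2417, 1447 and 822 UMIs in Ctrl and 0 in the knockdown. Elane (2263 UMIs) and Ctsg (1702 UMIs) were at 0 in Tim3-KD too, as was Saa3, an acute phase gene, with 1766 UMIs in Ctrl. Without the dividing Ctrl cluster, 178 of 2101 genes (8.47%) were higher and 242 (11.5%) lower. Saa3 still had 1761 UMIs in Ctrl, at 545 CPM, and 0 in Tim3-KD, while Pclaf fell to 99 and Rrm2 to 15 UMIs.

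The higher genes of monocyte-like cells included Cd36, a fatty acid receptor, with 23 UMIs in Ctrl and 66 in the knockdown, 3.72 and 131 CPM, a ratio of 35.3 (95% interval 21.6 to 59.4). Treml4 (9.55 and 117 CPM) and Ace (10.8 and 93.5 CPM), both known from patrolling Ly6c-low monocytes, were higher, and so was the fractalkine receptor Cx3cr1 of the same subset (37.9 and 179 CPM). Without the dividing cluster the log2 ratio went from 3.62 to 2.81 for Treml4 and from 3.11 to 2.20 for Ace, and without cells of a high doublet score to 2.64 and 2.05. The log2 ratio of Cd36 was 5.12, or 4.70 without the dividing cluster and 4.30 as a mean over cells, and fewer than 50 UMIs were left without cells of a high doublet score. Cd36, Treml4 and Ace each had a UMI in 34.8% of the 23 Tim3-KD cells. Genes of classical monocytes differed less, with Ccr2 at 669 and 720 CPM and Ly6c2 at 1478 and 1811 CPM, and the joint feature for Ly6c1 and Ly6c2 had 0 UMIs in the Ctrl library and 1717 in the other. Rras, a small GTPase, stood at 9.39 and 105 CPM (a log2 ratio of 3.49, or 2.77 without the dividing cluster and 2.38 as a mean over cells), Mrps24 at 13.1 and 101 CPM and Ifit3, an interferon-induced gene, at 7.12 and 53.7 CPM. Interferon-stimulated genes were higher for 11 of 25 and lower for 3, and immediate early and stress genes were higher for 13 of 21 and lower for 1, for instance Jun with 172 and 921 CPM and Dusp1, a phosphatase of the MAP kinases, with 287 and 1230 CPM. Without the dividing cluster the counts were 5 of 21 higher and 1 lower for interferon-stimulated genes and 7 of 20 higher and 1 lower for immediate early genes.

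Dendritic-like cells (35 and 26 cells) had 66 of 554 genes (11.9%) higher and 84 (15.2%) lower. They held a cluster led by Siglech, a gene of plasmacytoid dendritic cells (14 and 17 cells), and a cluster led by Clec9a, a gene of type 1 conventional dendritic cells (21 and 9 cells), so the mix inside the class differed too. Without cells of a doublet score over 0.15, 15 cells remained in each library, so the values below rest in large part on cells of a high doublet score. Ccl2 had 232 UMIs in Ctrl and 1 in the knockdown, the related chemokine Ccl7 had 77 and 1, and Hdc, which makes histamine, had 89 and 0. Isg15, an interferon-induced ubiquitin-like protein, had 69 and 2 UMIs, the metallothionein Mt1 had 86 and 6, and the chemerin-binding receptor Ccrl2 had 156 and 19. Of 9 NF-kB target and cytokine genes, 6 were lower and none higher, with Il1b at 538 and 218 CPM. On the higher side, Ccl3 stood at 52.1 and 252 CPM, the transcription factor Jun at 167 and 630 CPM, Tnfrsf13b (a receptor for BAFF and APRIL) at 31.6 and 122 CPM and Gapt at 20.5 and 94.5 CPM, and the ratios of Rnaset2a (50.5 and 406 CPM) and Mrps24 (14.2 and 97.4 CPM) were larger still. Without cells of a doublet score over 0.15 the log2 ratio of Tnfrsf13b went from 1.92 to 4.36 and that of Rnaset2a from 2.99 to 3.85, while Gapt, Mrps24, Ccl3, Hdc, Isg15 and Mt1 had fewer than 50 UMIs.

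B-like cells (260 and 198 cells) had 105 of 2152 genes (4.88%) higher and 193 (8.97%) lower. With trimmed mean scaling the counts were 152 and 126, so that the larger side changed. The clusters of this class were nearly split by library, since 1 cluster held 194 Ctrl and 0 Tim3-KD cells, another held 2 Ctrl and 190 Tim3-KD cells, and the last, led by Vpreb3 and Ly6d, genes of immature B cells, held 64 and 8. Dividing cells gave the lowest ratios, with Ube2c at 120 and 1 UMIs, Mki67 at 61 and 2 and Birc5 at 60 and 2. Of 10 mitosis genes, 8 were lower (median -2.58). Without the cluster led by Vpreb3 and Ly6d only 4 of them kept 50 UMIs, none was past 2-fold, and their median was -0.16. Sox4, a transcription factor of early B cells, had 64 and 2 UMIs and also fell under 50 UMIs without that cluster. Without it 96 of 1905 genes (5.04%) were higher and 119 (6.25%) lower, and of the 6 lowest genes named by rule the creatine kinase Ckb (77 and 3 UMIs) and the calcium-binding gene S100a4 (295 and 27 UMIs) were still among the latter.

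Among genes higher in B-like cells, Erdr1 had 0 and 114 UMIs, at least 28.1-fold higher, and Mrps24 had 8 and 188. Sdhaf1, an assembly factor of succinate dehydrogenase, had 9.46 and 94.1 CPM, Pcbd2, a pterin dehydratase, 2.95 and 26.3 CPM, Rnaset2a 20.1 and 124 CPM, and Ctla4 had 6 and 53 UMIs, in 0.769% and 3.03% of the cells, and had fewer than 50 UMIs without cells of a doublet score over 0.15. Receptor genes were mostly level, with Igkc at 7111 and 7022 CPM and Cd79a at 2559 and 2292 CPM. Fcmr, the receptor for IgM, was higher at 187 and 611 CPM, as was Fcer2a (CD23) at 144 and 305 CPM, although without the cluster led by Vpreb3 and Ly6d Fcer2a stood at 169 and 312 CPM, under 2-fold. The inhibitory receptor Fcgr2b stood at 70.9 and 34.1 CPM, and with the trimmed mean taken out none of the 18 B cell receptor and coreceptor genes was 2-fold lower. Of 12 MHC class II genes, none was past 2-fold in either direction (median -0.03). Immediate early genes were 4 of 21 higher and 2 lower, with Jun at 183 and 829 CPM and Atf3, a stress transcription factor, at 228 and 56.9 CPM.

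T-like cells (83 and 79 cells) had 46 of 755 genes (6.09%) higher and 126 (16.7%) lower, and a trimmed mean of -0.34 over the genes of the class. Once that shift was taken out, 53.5% of the genes past 2-fold were higher, against 26.7% before. The killing protease Gzma had 524 UMIs in Ctrl and 5 in the knockdown, 692 and 4.58 CPM, but came from 4.82% and 2.53% of the cells. Gzmb, the other main granzyme, had 95 and 7 UMIs. Costimulatory receptors of regulatory and activated T cells were lower, with Tnfrsf4 (OX40) at 198 and 12.8 CPM, Tnfrsf18 (GITR) at 242 and 28.4 CPM and the transcription factor Ikzf2 (Helios) at 223 and 17.4 CPM. Of 8 genes of the regulatory list, 6 were lower and none higher (median -1.75, or -1.41 with the shift taken out).

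A cluster led by Tnfrsf4 and Ctla4 held 20 Ctrl cells and 1 Tim3-KD cell. Without it, 6 regulatory genes kept 50 UMIs, of which 2 were lower and 1 higher (median -0.80), and Tnfrsf4 stood at 38.9 and 12.9 CPM. Gzma had 503 and 5 UMIs without it. Its log2 ratio of -7.10 depended on which cells were called T-like, and was -2.72 at a clustering resolution of 2 and -4.35 as a mean over cells, while that of Gzmb went from -4.20 to -1.95 and -2.79. H1f5, a linker histone, had 116 and 18 UMIs. Tmem176a, a membrane channel gene, stood at 9.25 and 48.6 CPM, a log2 ratio of 2.31 that was under 2-fold (0.78) at a resolution of 2. Also higher were Erdr1 (0 and 60 UMIs), Mrps24 (5 and 93), Rnaset2a (21 and 187), Stub1, a ubiquitin ligase (6 and 50), and Avl9 (11 and 65). Cells with a Cd3 UMI and at least 2 UMIs of Trdc, the delta chain constant gene, were 12 in Ctrl and 16 in Tim3-KD, which is 0.666% and 2.95% of all cells of the libraries and 5.85% and 11.9% of the cells of the T and NK clusters. Cells scored as CD8 by UMIs were 34 and 24, which is 1.89% and 4.43% of all cells but 16.6% and 17.8% of the T and NK clusters. The number of CD4 cells scored the same way was 57 and 43, which is 3.16% and 7.93% of all cells and 27.8% and 31.9% of the T and NK clusters.

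NK- or ILC1-like cells (122 and 56 cells) had 40 of 954 genes (4.19%) higher and 97 (10.2%) lower, or 55 and 54 with trimmed mean scaling. At a clustering resolution of 2 the class held 59 and 25 cells, with 14 genes higher and 29 lower, and of its 12 named genes Spp1, Cd8b1, Trim5, Ltb and Rnaset2a kept 50 UMIs and stayed past 2-fold in the same direction. A Cd3 UMI was present in 101 of the Ctrl and 49 of the Tim3-KD cells. Cd3g, a chain of the T cell receptor complex, stood at 1241 and 861 CPM, against 887 and 704 CPM in T-like and 23.6 and 9.63 CPM in B-like cells, so the Cd3 genes go against the name of this class, which rests on its killing genes. The killing genes differed by less than 2-fold, with Gzma at 1990 and 2467 CPM, Gzmb at 1160 and 801, Prf1 (perforin) at 280 and 205 and Ifng at 560 and 336. Spp1 (osteopontin) had 125 UMIs in Ctrl and 0 in the knockdown, at least 32.4-fold lower, in 9.84% of the Ctrl cells. Cd8b1 had 50 and 7 UMIs, and Trdc had 55 and 129, 63.8 and 193 CPM. Ltb (lymphotoxin beta) stood higher at 225 and 717 CPM, in 63.1% and 83.9% of cells. Of 6 NF-kB target genes, 4 were lower and none higher, among them the inhibitor Nfkbia at 1383 and 524 CPM. The other lower genes were Atad2 (82.4 and 16.4 CPM), Plcxd2 (82.4 and 16.4), Trim5 (89.3 and 23.9) and the mitochondrial transcription factor Tfam (51.1 and 13.4). The other higher ones were Mrps24 (16.2 and 101.6 CPM), Rnaset2a (58.0 and 238), Emc6 (26.7 and 95.6), Psme2b (17.4 and 59.8) and Spata7 (23.2 and 76.2).

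**Figure D5:**
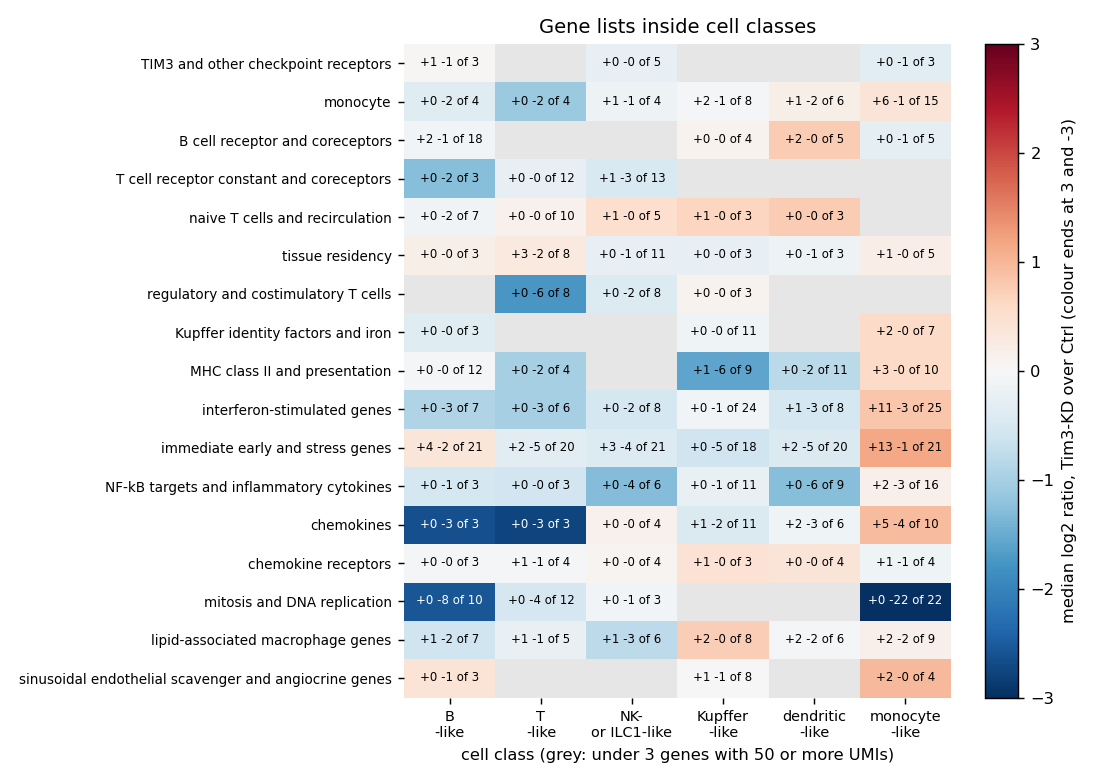
Median log2 ratio of Tim3-KD over Ctrl by gene list (rows) inside each cell class (columns), with the number of genes 2-fold or more higher (+) and lower (-) of those with at least 50 UMIs, and grey where fewer than 3 genes qualified. MHC class II stood low in Kupffer-like cells (6 of 9 lower), mitosis genes in B-like and monocyte-like cells, and regulatory genes in T-like cells.

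Havcr2, the gene targeted in the tumour cells, checks no label here, since the knockdown was in the injected tumour cells and the sort was for leukocytes. Whether tumour cells were left could not be checked, because none of the 8 epithelial or tumour markers was among the matrix genes. It had 143 UMIs in Ctrl and 38 in the knockdown, 4.67 and 5.36 CPM, a ratio of 1.15 (95% interval 0.781 to 1.65). The direction was not stable, as the log2 ratio of 0.21 became -0.37 with trimmed mean scaling, -0.57 as a mean over cells and -0.64 without neutrophil-like cells. Dendritic-like cells held the highest level, at 63.1 CPM in Ctrl (40 UMIs) and 37.8 CPM in Tim3-KD (26 UMIs), and monocyte-like cells followed with 11.01 CPM (68 UMIs) and 13.9 CPM (7 UMIs). NK- or ILC1-like cells had 9 and 0 UMIs, and T-like cells had none in either library.

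Set beside micrometastasis, the lesions taken from the liver on the same day in other libraries, the AT ratios often pointed the other way. Of the 2255 single-gene features in both tables, 972 were higher and 247 lower in AT, while 12 were higher and 418 lower in micrometastasis. Both sites were higher for 1 gene and lower for 11. The 349 genes higher in AT and lower in micrometastasis were 35.9% of those higher in AT, while 418 of all 2255 were lower in micrometastasis. They were 83.5% of those lower in micrometastasis, while 972 of all 2255 were higher in AT. The 10 genes lower in AT and higher in micrometastasis were 4.05% of those lower in AT, while 12 of all 2255 were higher in micrometastasis. They were 83.3% of those higher in micrometastasis, while 247 of all 2255 were lower in AT. The shift of 0.59 over AT genes was not taken out of these counts. Igkc stood at 462 CPM in Ctrl and 34.6 in the knockdown in micrometastasis, against 415 and 2306 in AT, and Clec4f at 250 and 140 CPM, against 85.8 and 1553. Mki67 stood at 91.3 and 163 CPM, against 143 and 12.4 in AT. H2.Aa stood at 1289 and 250 CPM across all cells of micrometastasis, against 653 and 2373 CPM in AT and 5001 and 1390 CPM in AT Kupffer-like cells. The tables were scaled separately and each site had 1 library a side, so the difference between the sites was not tested.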

How the data were processed

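The study's authors sorted CD45+ cells, prepared 10x Genomics 3' v3.1 libraries, trimmed reads with Trim Galore 0.4.3, mapped them with STAR 2.7.7a to GRCm38 and counted UMIs over exons and introns; cells passed more than 1000 UMIs, more than 1000 genes and under 20% mitochondrial UMIs, and called doublets were removed. The deposited values are scaled scores per gene, capped at 10, with total UMIs regressed out. Scores were turned back into UMIs (99.9995% of values fell within 0.05 of a whole number; 0.143% of non-zero values were at the cap and are lower bounds), except for Klra5 and Vpreb2. Cells were clustered with scanpy 1.11.5 and leidenalg 0.10.2 (30 components, 15 neighbours, resolution 1). Ratios compare summed UMIs over the total of the library or class, with exact conditional 95% intervals. There was 1 library a side, so no test was run. The named genes were Havcr2, the 12 highest and 12 lowest ratios across libraries with at least 100 UMIs, 5 and 5 at the fixed mix, and 6 and 6 inside each class with at least 50 UMIs, leaving out ribosomal, mitochondrial and haemoglobin genes, receptor segments and models without a gene name (Gm plus digits, Rik or an accession). Members and lists were chosen with earlier results of these data known. Transcripts were compared with blastn against GENCODE vM21. Scripts were tested on simulated data. A further sequence comparison is not reported here.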

Additional observations from a re-analysis of the deposited data

Results flagged for a closer look

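Over the 2255 genes in both tables, 972 were 2-fold or more higher and 247 lower in AT, against 12 and 418 in micrometastasis. Of the 19 genes named for their whole-library AT ratio that were also in the micrometastasis table, 17 had a log2 ratio of the opposite sign there, while Prok2 (-0.31) and Stfa2 (-0.036) were below 0 in both, and the difference between the sites was not tested, since each site had 1 library a side. Of the genes higher in AT, the micrometastasis log2 ratio of Tim3-KD over Ctrl was -2.19 for Adgrf5, -2.07 for Ptprb, -1.84 for Clec4g, -1.72 for Aqp1, -1.63 for Oit3, -1.60 for Cyp4b1 and -1.55 for Meis2. Of the genes lower in AT, it was 1.40 for Ctsg, 1.13 for Elane, 1.11 for Prtn3, 1.03 for Mpo, 1.01 for Ms4a3, 1.01 for Prss57 and 0.79 for Fcnb. It was also above 0, but near it, for Ltf (0.13), Ly6g (0.089) and Stfa3 (0.075), which had no UMI in the AT Tim3-KD library.

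Features that name several genes lie outside the single-gene comparison, and 97 of these 128 features were 2-fold or more higher in Tim3-KD, 37 of them with no UMI in Ctrl.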

How the results depend on the processing

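Across the whole libraries 1839 genes were past 2-fold. Without neutrophil-like cells the count was 1216, and at 4-fold it was 735. Havcr2 had a log2 ratio of 0.21, but -0.37 with trimmed mean scaling, -0.57 as a mean over cells and -0.64 without neutrophil-like cells. Lists with a median log2 ratio of 1 or more were 17, against 11 with trimmed mean scaling, 10 as a mean over cells and 9 without neutrophil-like cells. With at least 20 instead of 50 UMIs, genes past 2-fold went from 298 to 553 in B-like, 204 to 490 in Kupffer-like, 137 to 429 in NK- or ILC1-like, 172 to 499 in T-like and 150 to 472 in dendritic-like cells. NK- or ILC1-like cells gave 43 at a clustering resolution of 2, and monocyte-like cells 420 instead of 962 without the dividing cluster. The share of neutrophil precursor-like cells was 13.8 points lower in Tim3-KD (-13.8), and -19.0 points at a resolution of 2. Calls inside B-like cells were 35.2% higher (54.7% with trimmed mean scaling), and inside NK- or ILC1-like cells 29.2% (50.5%). Of the other settings, 429 values of named genes moved by less than their counting interval and 41 by more. Leaving out genes with a near-identical copy and 3 single clusters were chosen after the data were seen. No paired analysis was possible because each group had 1 library.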

Other observations

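Genes of lipid handling in macrophages split in both directions across the AT libraries, with 6 of 13 higher and 5 lower in Tim3-KD, against 32.8% higher and 9.41% lower over all genes. The apolipoprotein Apoe had 279 CPM in Ctrl and 5709 CPM in the knockdown, and lipoprotein lipase (Lpl) had 3.43 and 107 CPM. Osteopontin (Spp1) had 31.4 and 3.67 CPM and the fatty acid carrier Fabp5 had 111 and 15.2 CPM. At the fixed class mix Apoe had a log2 ratio of 1.02 and Spp1 one of -3.51, so the opposite signs were also there with the classes weighted alike. Inside Kupffer-like cells Apoe stood at 14428 and 23588 CPM. Of 4 enzymes of arginine and itaconate metabolism, 3 were lower (9.41% of all genes were), with the itaconate enzyme Acod1 at 280 and 13.3 CPM, but 1 of the 4 was lower at the fixed mix, where Acod1 had a log2 ratio of -0.74. Among checkpoint genes, Btla, an inhibitory receptor of lymphocytes, stood at 5.32 and 25.4 CPM with a log2 ratio of -0.01 at the fixed mix, while the ligand gene Cd274 (PD-L1) stood at 22.2 and 23.4 CPM.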
